A study of Mus musculus with 35 samples.

Results

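Chromatin accessibility was followed through the exit from naive pluripotency in DNMT_WT, the parental wild-type line of a family of mouse embryonic stem cells whose knockout line, DNMT_KO, lacks Dnmt1, Dnmt3a and Dnmt3b. The 3 D2 libraries, from cells taken towards epiblast-like cells (EpiLC) for 2 days, were compared with the 3 D0 libraries, from embryonic stem cells kept in 2i/Lif. These are 6 of the 35 libraries of the series, which holds 4 lines and 3 days. They were chosen by their labels alone. The labels do not say whether the line is 1 clone or whether the replicates were separate cultures, and each p-value below therefore reflects library-to-library spread that may be technical. TET_WT, the parental line of a Tet1, Tet2 and Tet3 triple knockout, and DNMT_KO, each with 3 libraries at D2 and 3 at D0 in the same culture states, serve below to show where DNMT_WT differed.

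In 2i/Lif, inhibitors of MEK and GSK3 together with the cytokine Lif hold mouse embryonic stem cells in a naive state that resembles the epiblast before implantation. That state rests on a network of transcription factors, among them Esrrb, Tfcp2l1, Klf and Nanog proteins, which bind clusters of enhancers. When the inhibitors and Lif are withdrawn and Fgf and activin are supplied, cells pass into the formative state, in which that network is dismantled, factors such as Otx2 and Pou3f1 engage other enhancers, and the de novo DNA methyltransferases are induced. In ATAC-seq a transposase inserts adapters into open DNA, so reads pile up at active promoters and enhancers.

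The unit of measurement was the 2-kb tile. The libraries were shallow, with 4886942 to 5541143 reads in tiles at D2 and 5129083 to 7620098 at D0, so the median autosomal tile held 3 to 4 reads at D2 and 3 to 5 at D0. Pooled over autosomes, D2 had 0.821 times the reads of D0, which matters for the raw reads given below. The 1% of tiles with the most reads took only 5.19 to 6.04% of reads at D2 and 5.46 to 6.32% at D0. Pearson's r between libraries over tested tiles was 0.52 to 0.62 within a day and 0.44 to 0.51 between the days. A change below is the D2 minus D0 difference in quantile-normalised log2 RPKM (reads scaled to tile length and library total) with its standard error (SE), and a call is a 2-sided limma test with a Benjamini-Hochberg adjusted p under 0.05 over all 130143 tested tiles. Pluripotency genes had open promoters on both days. The promoter tile of Sox2 held 28, 19 and 23 reads at D2 and 27, 21 and 35 at D0, and that of Pou5f1 held 10, 11 and 11 reads at D2 and 15, 14 and 32 at D0. In such bulk libraries, fewer cells with a site open and less access per cell cannot be told apart.

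Closing outweighed opening. Of the tested tiles, 1377 (1.06%) were higher at D2 and 3364 (2.58%) were lower, together 4741 (3.64%). The median change of the tiles called higher was 1.50, with 42 reads summed over the D2 libraries against 22 over the D0 libraries. The median change of those called lower was -1.69, with 17 reads at D2 against 62 at D0. The median autosomal tile held 11 reads at D2 and 13 at D0, and 321 closing tiles (9.54%) were at or below that median. Of the opening tiles 96 (6.97%) were at or below that median at D0. The balance depended on the scaling. Tiles called higher were 29.0% of calls after quantile normalisation, 14.7% of 3112 calls with the values as deposited and 16.3% of 3051 with the medians set equal. The spread was estimated from all 23 D0 and D2 libraries, and DNMT_WT was the noisiest of the compared lines, with a median within-group SD of 0.57 against 0.40 in TET_WT and 0.52 in DNMT_KO. A fit to its own 6 libraries called 424 tiles, 54 higher and 370 lower. In that fit 4 of the 19 tiles named below as higher and 14 of the 20 named as lower passed, as did 1 of 14 higher and 5 of 21 lower neighbourhoods and 0 of 9 higher and 1 of 6 lower promoters named from the gene lists. Among those that missed the threshold there were the tiles at Shisa6 (adjusted p = 0.0989), Has2 (0.119) and Car8 (0.114) and the promoters of Epcam (0.0749) and Esrp1 (0.0593).

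Opening and closing tiles lay in different places. Tiles that hold a gene start were 16.5% of tested tiles, 21.6% of those called higher and 4.79% of those called lower. At such promoter tiles 1.38% were called higher and 0.749% lower. Between genes the shares were 1.05% and 3.63%, and inside genes away from a start 0.949% and 2.43%. The share of tiles called lower was 1.34% within 2 kb of a start, 2.41% at 2 to 10 kb, 3.18% at 10 to 50 kb and 3.62% at 50 to 100 kb, whereas the share called higher was 1.54%, 1.11%, 0.886% and 0.887% over the same distances. Losses were thus mostly distal and gains were spread more evenly. Promoter tiles were tested whatever their level and other tiles only when in the highest 10% by mean, so the classes are not matched for reads.

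**Figure D1:**
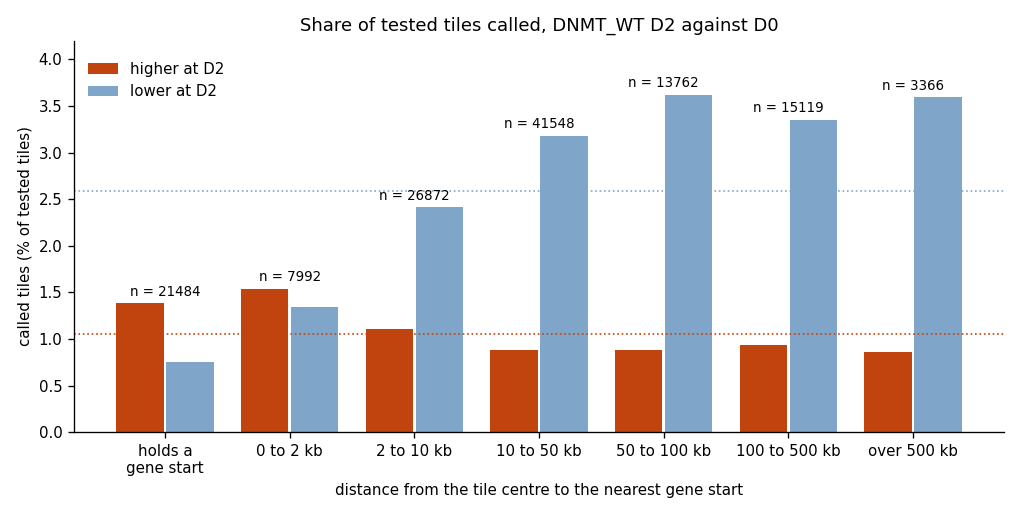
Share of tested 2-kb tiles called higher (red) or lower (blue) at D2 against D0 in DNMT_WT, in percent, by the distance of the tile's centre from the nearest gene start; n is the number of tested tiles and the dotted lines are the shares over all tested tiles. Tiles called lower make up 0.749% of promoter tiles and 3.62% of tiles 50 to 100 kb from a start.

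Some closing tiles came in clusters, though most loci were single tiles. Closing calls outnumbered opening calls, and the counts of loci were not matched for that. Called tiles of 1 direction no more than 10 kb apart formed 2832 closing loci, of which 85.8% were single tiles and 78 held 3 or more, and 1271 opening loci, of which 93.0% were single tiles and 13 held 3 or more. The longest closing locus covered 60 kb of the later part of Esrrb (chromosome 12, 86462001 to 86522000, GRCm38), which encodes an orphan nuclear receptor of the naive network. Of its 30 tiles, 27 were tested, 13 were called lower and 0 higher. Those 13 tiles held 90, 80 and 98 reads in the D2 libraries, against 336, 220 and 445 in the D0 libraries. The D2 libraries were all far below the D0 libraries in these tiles, which were called from the same libraries. Its strongest tile (86500001 to 86502000) held 3, 7 and 3 reads at D2, against 34, 21 and 41 at D0, a change of -2.84 ± 0.39 (adjusted p = 0.000199). The second lay over Tfcp2l1, a transcription factor of the same network (chromosome 1, 118640001 to 118694000), with 11 tiles called lower of 26 tested and 85, 71 and 77 reads at D2 against 289, 234 and 358 at D0. Its strongest tile, 15.1 kb into the gene, held 5, 3 and 8 reads at D2 against 42, 28 and 36 at D0 (-2.66 ± 0.33, adjusted p = 6.66e-05).

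**Figure D2:**
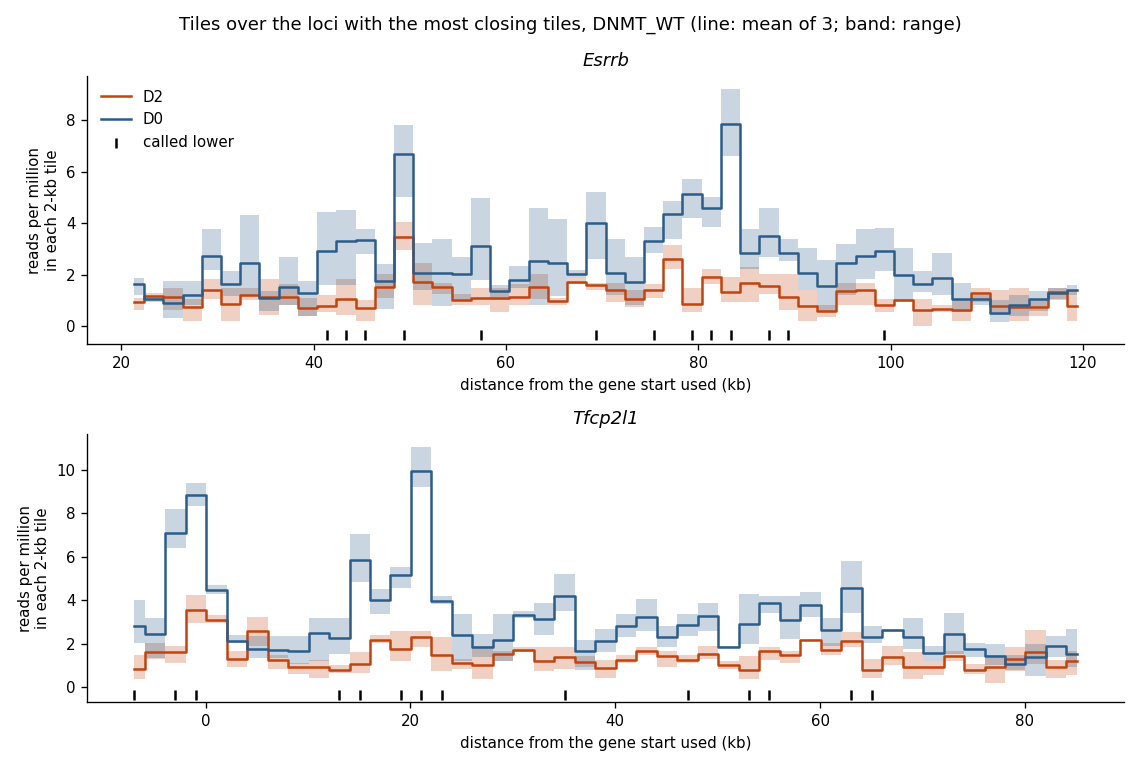
Reads per M (10 to the sixth) autosomal reads in each 2-kb tile (y axis) by distance from the gene start used, in kb (x axis), over the closing loci at Esrrb and Tfcp2l1 and 20 kb to each side, in DNMT_WT at D2 (red) and D0 (blue); lines are means of 3 libraries, bands their range and ticks the tiles called lower. The D0 peaks over Esrrb and Tfcp2l1 are lower at D2, in all called tiles.

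Further closing loci stood at other genes. The 6 called tiles around the start of Jam2, a junctional adhesion molecule (chromosome 16, 84768001 to 84782000), held 51, 60 and 40 reads at D2 against 230, 173 and 222 at D0. The 6 tiles nearest to Kat6b, a histone acetyltransferase gene (chromosome 14, 21458001 to 21490000), held 31, 27 and 32 reads at D2 against 109, 98 and 143 at D0. The 6 tiles in Zfp704 (chromosome 3, 9600001 to 9618000) held 39, 32 and 44 reads at D2 against 109, 94 and 152 at D0. At these loci every D2 library lay below every D0 library, in reads of tiles that were called from the same libraries. After normalisation the days did not overlap in 3285 of all 3364 tiles called lower, against 16.8% of all tested tiles in either direction. The calls came from the same libraries, so this separation is no separate evidence. The 5 tiles at Pramel7, a gene of the Prame-like family that is active in naive cells (chromosome 2, 87478001 to 87492000), held 24, 28 and 23 reads at D2 against 86, 86 and 141 at D0. Its strongest tile (-2.38 ± 0.58, adjusted p = 0.0198) missed the threshold without replicate 1 (0.0634) or 3 (0.0524) of D2 or replicate 2 of D0 (0.0867). Pramel7 has close relatives in the genome, and how the authors assigned reads from near-identical copies was not stated.

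The opening loci with the most called tiles held 3 or 4 each. Between Zfp281 and Nr5a2, 114 kb from the start of Zfp281, which encodes a zinc-finger factor of the exit from the naive state, 4 tiles (chromosome 1, 136728001 to 136740000) held 63, 66 and 62 reads at D2 against 28, 24 and 36 at D0. In an intergenic stretch of chromosome 11 (93600001 to 93616000), 277 kb from the nearest start, that of Utp18, 3 tiles held 64, 46 and 41 reads at D2 against 19, 7 and 22 at D0. Near the protocadherin gene Pcdh1 (chromosome 18, 38172001 to 38190000) 4 tiles held 60, 47 and 62 reads at D2 against 24, 23 and 28 at D0. Every D2 library was above every D0 library at these 3 loci, again in reads of tiles called from the same libraries. After normalisation the days did not overlap in 1324 of all 1377 tiles called higher, against 16.8% of all tested tiles in either direction. This separation too follows largely from the calls. A further opening locus lay where Gpr1 and Zdbf2, an imprinted gene, overlap (chromosome 1, 63204001 to 63220000), with 53, 37 and 35 reads at D2 against 22, 17 and 25 at D0 in its 3 tiles. At the other two the days overlapped in reads, though not after scaling to the library total. The 4 tiles in Il12rb2, an interleukin receptor gene (chromosome 6, 67290001 to 67298000), held 91, 71 and 65 reads at D2 against 40, 20 and 68 at D0. The 4 tiles in the replication-dependent histone cluster beside H2bc11 (chromosome 13, 22036001 to 22046000) held 102, 73 and 76 reads at D2 against 49, 29 and 86 at D0, in a stretch of similar gene copies whose reads may be shared.

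Single tiles changed more than these blocks. The largest fall was inside Tnfrsf21, a death receptor gene, 20.4 kb from its start (chromosome 17, 43036001 to 43038000), with 1, 2 and 1 reads at D2 against 45, 35 and 36 at D0 (-4.64 ± 0.30, adjusted p = 1.68e-08). A tile 213 kb from the start of Kcnj3, a potassium channel gene, held 2, 0 and 5 reads at D2 against 49, 30 and 52 at D0 (-4.41 ± 0.60, adjusted p = 0.000169). A tile in Car8 held 0, 0 and 11 reads at D2 against 43, 20 and 52 at D0 (-4.13 ± 0.69, adjusted p = 0.00102). These tiles were well covered at D0 and nearly empty at D2, although 1 D2 library held 11 reads at Car8. Tiles inside Filip1l (-4.08 ± 0.57), 10.4 kb from Trps1, which encodes a GATA-type repressor (-4.05 ± 0.46), beside Nwd2 (-3.98 ± 0.48) and beside St8sia3, a sialyltransferase gene (-3.92 ± 0.37), followed. The last of the 8 lay in Dym, 144 kb from the start of Smad7 (-3.81 ± 0.51). At all 8 the D2 libraries held 0 to 11 reads and the D0 libraries 20 to 52.

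The largest rises were smaller and started from few reads. A tile 41.0 kb from Shisa6 (chromosome 11, 66568001 to 66570000) held 25, 22 and 24 reads at D2 against 1, 6 and 9 at D0 (3.12 ± 0.42, adjusted p = 0.000169). A tile inside Itpr2, a gene for a calcium channel of the endoplasmic reticulum (chromosome 6, 146342001 to 146344000), held 22, 24 and 21 reads at D2 against 2, 5 and 7 at D0 (3.09 ± 0.39, adjusted p = 7.66e-05). A tile 67.5 kb from Has2, which encodes a hyaluronan synthase (chromosome 15, 56626001 to 56628000), held 21, 21 and 13 reads at D2 against 8, 3 and 1 at D0 (3.04 ± 0.64, adjusted p = 0.00734). Groups did not overlap in any of the 8 tiles, since that was a condition for naming them, and 16.8% of all tested tiles met it. The others lay 524 kb from Kcna4 (3.00 ± 0.64), inside Masp1 (2.88 ± 0.56), 312 kb from the adhesion gene Nrcam (2.81 ± 0.45), 713 kb from Abca13 (2.71 ± 0.44) and at a start of Arhgap32 (3.20 ± 0.53). The tile at Kcna4 missed the threshold without D0 replicate 3 (adjusted p = 0.0533).

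**Figure D3:**
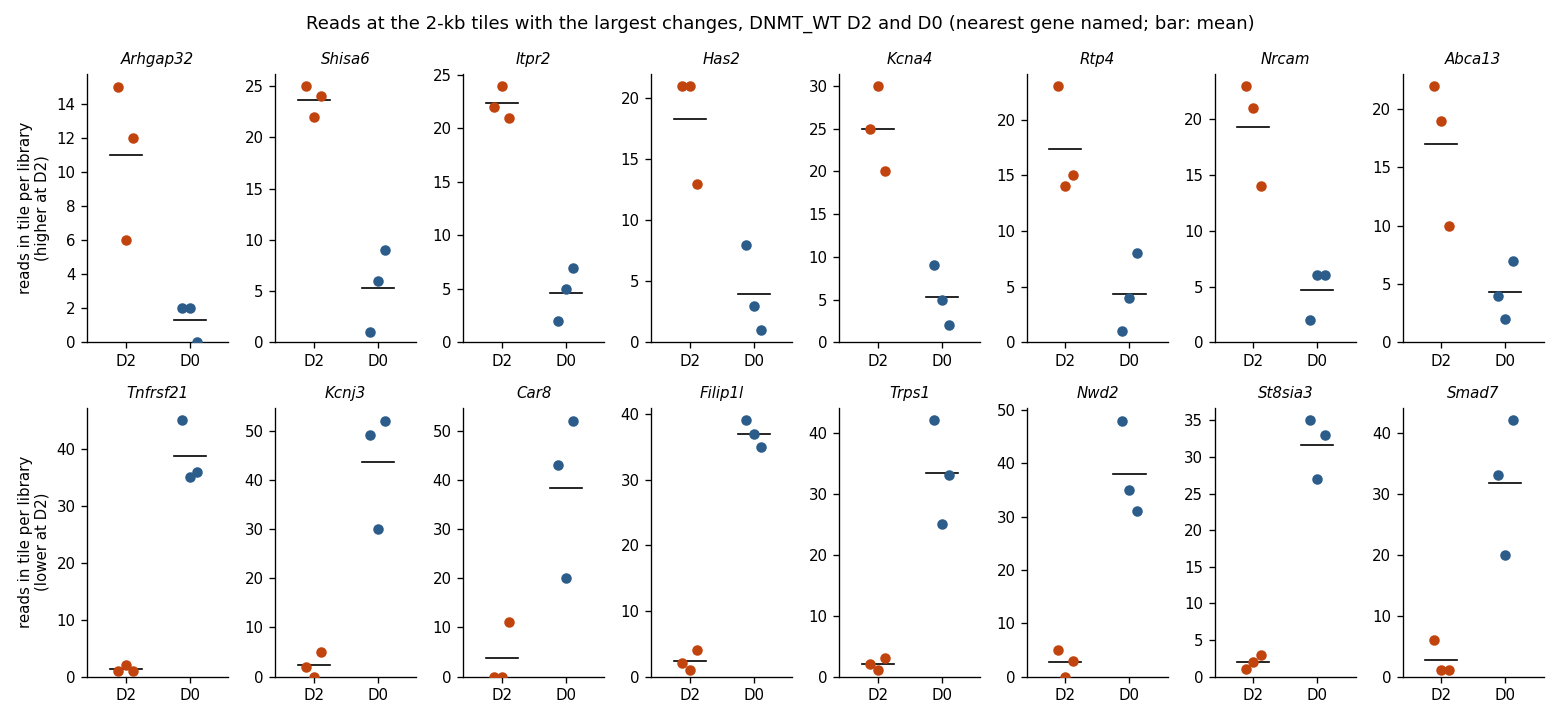
Reads per library (y axis, from 0) in the 8 tiles with the largest rises (top) and the 8 with the largest falls (bottom) in DNMT_WT, D2 left (red) and D0 right (blue) in each panel, named by the nearest gene; points are the 3 libraries of a day and bars their means. D2 libraries hold 0 to 11 reads in the lower panels, where D0 libraries hold 20 to 52.

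Of 20661 protein-coding genes with a start, the promoter tile was called higher in 276 (1.34%) and lower in 145 (0.702%). Over promoter tiles, those called higher were 64.8% of 458 calls, 51.3% of 197 with the values as deposited and 54.4% of 206 with the medians set equal. Without D2 replicate 1 the calls were 192 higher and 186 lower, and with no filter on tiles the balance turned, with 14 higher and 21 lower. Among the promoters with the largest rises the one with the most reads was that of Epcam, which encodes the epithelial cell adhesion molecule. Its tile (chromosome 17, 87634001 to 87636000) held 15, 19 and 22 reads at D2 against 4, 8 and 6 at D0, a change of 2.30 ± 0.38 (adjusted p = 0.00086). The start lies at the edge of this tile, and the next tile held 27, 7 and 18 reads at D2 against 7, 5 and 18 at D0 (1.29 ± 0.41, adjusted p = 0.0852). The days did not overlap in the first of these tiles, a condition for naming it that 14.1% of all promoters met, and they overlapped in the second. Aqp3, an aquaglyceroporin gene, fell. Its promoter tile (chromosome 4, 41098001 to 41100000) held 8, 3 and 5 reads at D2 against 40, 21 and 30 at D0 (-2.43 ± 0.30, adjusted p = 6.66e-05). Bcl3, a coactivator of NF-kappaB and a target of Lif signalling through Stat3, held 8, 9 and 12 reads in its promoter tile (chromosome 7, 19822001 to 19824000) at D2 against 38, 26 and 43 at D0 (-1.61 ± 0.24, adjusted p = 0.000337). The promoter tile of Tfcp2l1 (chromosome 1, 118626001 to 118628000) held 16, 16 and 21 reads at D2 against 56, 44 and 62 at D0 (-1.15 ± 0.23, adjusted p = 0.00488). The tile just upstream of it held 6, 9 and 9 reads at D2 against 49, 32 and 50 at D0 (-2.18 ± 0.26, adjusted p = 3.77e-05).

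The windows of 300 bases at these 4 starts, 250 before and 50 after, are shown as the regulatory sequence at 1 opening and 3 closing promoters. They come from RefSeq on GRCm38.p6, 5′ to 3′ on the gene's strand: Epcam chr17:87635729-87636028 (plus), Aqp3 chr4:41098134-41098433 (minus), Tfcp2l1 chr1:118627695-118627994 (plus) and Bcl3 chr7:19822706-19823005 (minus). Capitals mark matches, on either strand, to any of 12 short motifs searched by letters: ATGCAAAT (POU), AAGGTCA (ESRRB), GGGNGTGG (KLF), TTCNNNGAA (STAT), GCCNNNGGC (TFAP2), TGANTCA (AP-1), GGATTA (OTX), CAGCAGG (ZIC), AACCGG (GRHL), ACATTCC (TEAD), GCGGGCG (EGR) and GGGCGG (GC box). Matches of different motifs may share bases.
Epcam: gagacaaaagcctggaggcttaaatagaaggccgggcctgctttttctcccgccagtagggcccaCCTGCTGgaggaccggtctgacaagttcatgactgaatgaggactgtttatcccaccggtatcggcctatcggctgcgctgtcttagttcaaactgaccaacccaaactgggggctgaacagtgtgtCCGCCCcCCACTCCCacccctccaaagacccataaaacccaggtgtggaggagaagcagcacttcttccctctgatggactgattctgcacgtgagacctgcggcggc
Aqp3: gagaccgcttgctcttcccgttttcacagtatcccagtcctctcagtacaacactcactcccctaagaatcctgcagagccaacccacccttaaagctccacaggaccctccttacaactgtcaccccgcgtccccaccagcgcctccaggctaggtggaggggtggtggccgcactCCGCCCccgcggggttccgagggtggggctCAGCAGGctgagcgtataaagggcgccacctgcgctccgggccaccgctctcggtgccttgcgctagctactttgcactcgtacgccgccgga
Tfcp2l1: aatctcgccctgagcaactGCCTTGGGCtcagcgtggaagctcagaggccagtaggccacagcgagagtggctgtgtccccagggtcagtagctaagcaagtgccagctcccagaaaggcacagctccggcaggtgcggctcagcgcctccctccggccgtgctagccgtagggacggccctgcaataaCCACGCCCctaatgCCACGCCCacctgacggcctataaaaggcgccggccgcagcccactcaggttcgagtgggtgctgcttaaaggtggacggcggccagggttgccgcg
Bcl3: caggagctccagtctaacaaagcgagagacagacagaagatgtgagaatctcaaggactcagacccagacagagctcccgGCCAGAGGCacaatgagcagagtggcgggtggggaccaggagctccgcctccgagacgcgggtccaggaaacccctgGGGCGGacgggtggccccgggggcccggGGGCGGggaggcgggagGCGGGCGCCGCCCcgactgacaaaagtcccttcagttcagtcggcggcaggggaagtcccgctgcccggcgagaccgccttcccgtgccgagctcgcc
The Tfcp2l1 window held 2 KLF matches and 1 TFAP2 match, that of Bcl3 3 GC boxes, 1 EGR and 1 TFAP2 match, that of Aqp3 1 GC box and 1 ZIC match, and that of Epcam 1 match each to KLF, ZIC and the GC box. Over all 16456 genes with such a window, a KLF match was present in 19.7%, a TFAP2 match in 20.5% and a GC box in 48.5%. Among the 218 windows whose tile was called higher the shares were 24.8%, 21.1% and 42.7%, and among the 115 called lower 20.9%, 25.2% and 53.9%. ESRRB matches were in 4.13% of windows called higher and 6.09% of those called lower, against 3.95% of all, and STAT matches in 7.80% and 8.70%, against 7.78%. ZIC matches were in 7.34% of windows called higher and 11.3% of those called lower, against 10.4% of all. EGR matches were in 10.6% and 20.0%, against 14.9%. The median number of CpG sites was 13 in windows called higher and 12 in those called lower, against 15 in all. These are descriptions of sequence letters near gene starts, and most closing tiles lie elsewhere.

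Most of the other promoters with the largest changes had few reads or were secondary starts. A downstream alternative start of Arhgap32 (chromosome 9, 32224001 to 32226000) held 15, 6 and 12 reads at D2 against 2, 2 and 0 at D0. Such a start of Kdm3a, a histone H3 lysine 9 demethylase gene (chromosome 6, 71608001 to 71610000), held 3, 5 and 3 reads at D2 against 19, 17 and 34 at D0 (-2.59 ± 0.44, adjusted p = 0.00123). A downstream start of Lpar1, a lysophosphatidic acid receptor gene, held 4, 3 and 2 reads at D2 against 20, 12 and 19 at D0 (-2.45 ± 0.41). Both closing starts were low in every D2 library. Ccdc141 held 5, 3 and 5 reads at D2 against 32, 15 and 35 at D0 (-2.49 ± 0.31, adjusted p = 6.07e-05). Its limma call held without any 1 library and in the fit to the 6 DNMT_WT libraries (adjusted p = 0.0321). Pdcl2 held 8, 2 and 3 reads at D2 against 26, 21 and 17 at D0 (-2.41 ± 0.48). It kept its call without any 1 library but missed the threshold in the fit to the 6 libraries (adjusted p = 0.113). Gask1a (2.29 ± 0.46), A26c3 (2.59 ± 0.47) and Fam50b (2.32 ± 0.49) rose on 33, 25 and 23 reads summed over D2. Fam50b missed the threshold without D0 replicate 3 (adjusted p = 0.0519). The olfactory receptor genes Olfr786 (2.31 ± 0.51) and Olfr1308 (-2.47 ± 0.63) have many similar copies whose reads may be shared. Olfr786 lost its call without D2 replicate 3 (0.0719) or D0 replicate 2 (0.0803), and Olfr1308 without replicate 1 (0.0573) or 2 (0.0966) of D2 or replicate 1 (0.0621) or 3 (0.1) of D0.

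Distal neighbourhoods were read per gene, as the mean of the tested tiles that hold no gene start, lie within 50 kb of a gene's start and have it as their nearest. Of 14904 genes with such tiles (median 3), 316 (2.12%) were called higher and 589 (3.95%) lower. Those higher were 34.9% of calls, 12.9% of 417 with the values as deposited and 17.1% of 456 with the medians set equal. A neighbourhood may act on another gene. The gene lists read from here on were chosen with earlier results of these data known. Their counts and medians are therefore not an independent test. Of the 19 measured genes of the naive list 11 were called lower, 0 higher and 8 did not pass, and the median change was -0.69 against 0.05 over all genes. Calls for 7 of the 11 held in every fit without 1 library, and 8 to 10 of the 11 held in any single one. With the values as deposited 9 of the 11 passed, and in the fit to the 6 DNMT_WT libraries Jam2 (adjusted p = 0.0231), Mras (0.0385) and Tfcp2l1 (0.0465) did.

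Jam2 fell most, with 11 tiles at 82, 83 and 63 reads per D2 library against 281, 201 and 288 per D0 library (-1.42 ± 0.17, adjusted p = 6.86e-05). Spic, an Ets-family factor gene, had 28, 37 and 48 reads at D2 against 104, 83 and 139 at D0 in 6 tiles (-1.31 ± 0.20, adjusted p = 0.000576). Mras, a Ras-related GTPase gene, had 56, 43 and 50 reads at D2 against 121, 82 and 179 at D0 in 8 tiles (-1.17 ± 0.18, adjusted p = 0.000718). No D2 library reached the lowest D0 library at these genes. Over all genes the days did not overlap in 20.9% of neighbourhoods after normalisation, in either direction. Tfcp2l1, with 35 tiles, had 268, 267 and 254 reads at D2 against 677, 529 and 777 at D0 (-1.01 ± 0.14, adjusted p = 0.000364). Smaller falls that also held without any 1 library were those of Klf5 (-0.85 ± 0.14) and Nr5a2 (-0.63 ± 0.13), which encode a Krüppel-like factor and an orphan nuclear receptor that can drive Pou5f1, and of Zfp42 (-0.74 ± 0.14), the Rex1 marker of naive cells. At Zfp42 a tile 14.0 kb from the start held 12, 2 and 9 reads at D2 against 41, 39 and 52 at D0.

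The remaining naive calls rested on single libraries. Tdh, the threonine dehydrogenase gene (-0.90 ± 0.20), missed the threshold without D2 replicate 3 (adjusted p = 0.0584), and Tbx3, a T-box factor gene (-0.69 ± 0.17), without replicate 2 of D2 (0.0656) or of D0 (0.0898). Dppa3, a maternal factor gene (-0.73 ± 0.19), missed it without D2 replicate 1 (0.106) or 2 (0.0648) or D0 replicate 1 (0.0696) or 3 (0.0563). Esrrb (-0.57 ± 0.16) missed it without the same 4 libraries (0.144, 0.0931, 0.095 and 0.14). Its 21 neighbourhood tiles end 50 kb from the start used and so hold only the near end of the closing locus above, with 5 tiles called lower. Klf4 (-0.70 ± 0.22, adjusted p = 0.0599), Nanog (-0.34 ± 0.15, 0.188), Klf2 (-0.23 ± 0.16, 0.436) and Prdm14 (-0.08 ± 0.15, 0.806) did not pass. At promoters 3 of 19 naive genes were lower, Tdh (5, 4 and 6 reads at D2 against 33, 13 and 23 at D0, -1.98 ± 0.31), Tfcp2l1 and Jam2 (-1.08 ± 0.23, adjusted p = 0.0562 without D0 replicate 2), with a median of -0.46 against 0.07 over all genes. Over all genes 0.702% of promoters were called lower. Nr0b1 is X-linked and was not analysed here. Tdh, Jam2, Klf5, Tbx3 and Dppa3 have no annotated start in the table used, so the gene end with more reads stood for it.

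**Figure D4:**
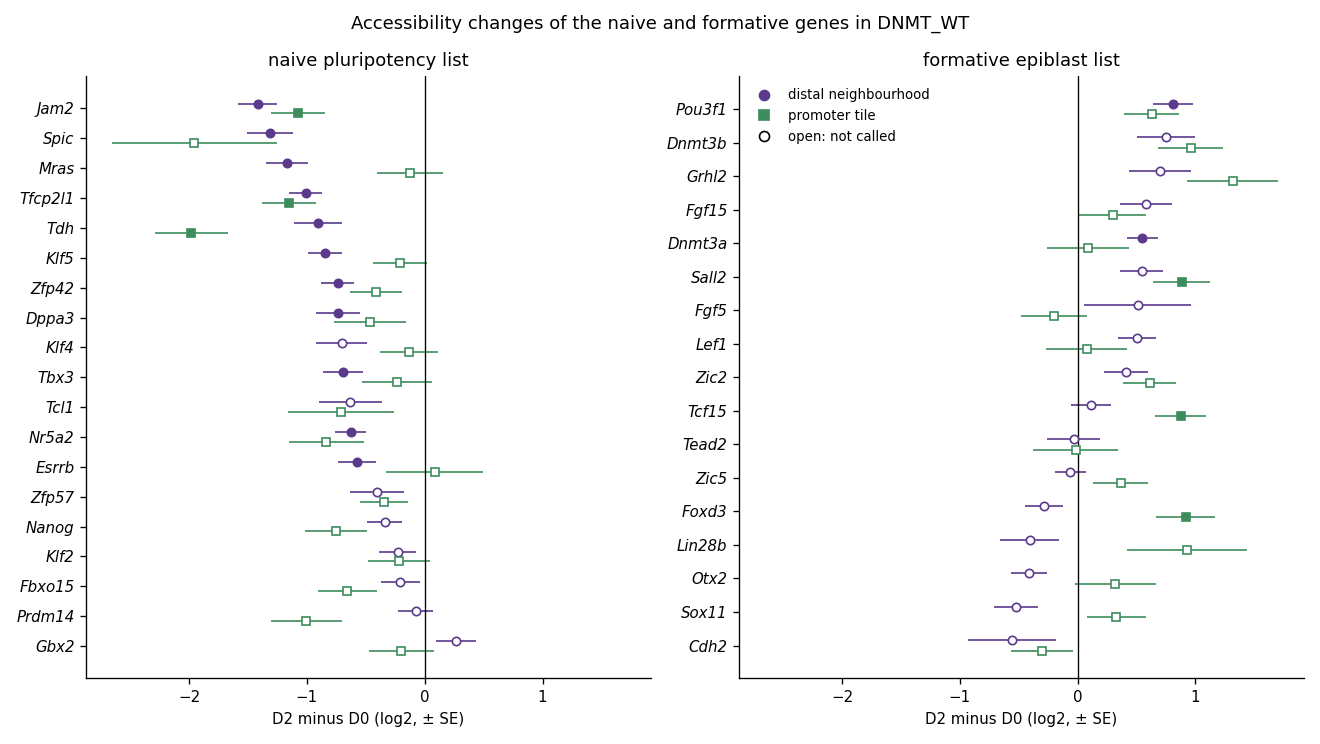
D2 minus D0 change (x axis, log2, ± SE of the fit over 3 libraries a day) of the distal neighbourhood (purple circles) and the promoter tile (green squares) of each naive (left) and formative (right) gene in DNMT_WT; filled symbols passed the test. Among naive genes 18 of 19 neighbourhoods lie below 0, where 44.8% of all neighbourhoods do. Among formative genes 10 of 17 lie above 0, near the share over all genes, 8230 of 14904.

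Of 17 measured formative genes, 2 neighbourhoods were called higher and 0 lower, where 2.12% of all neighbourhoods were higher. Their median change was 0.41, against 0.05 over all genes and 0.26 over housekeeping genes. At promoters 3 were higher and 0 lower, where 1.34% of all were higher, with a median of 0.37 against 0.07. Pou3f1, which encodes the formative factor Oct6, rose by 0.81 ± 0.17 (adjusted p = 0.00685). A tile 10.6 kb from its start (chromosome 4, 124646001 to 124648000) held 23, 21 and 18 reads at D2 against 7, 8 and 6 at D0 (2.15 ± 0.35, adjusted p = 0.000778). Dnmt3a, the de novo methyltransferase gene, rose by 0.55 ± 0.13 (adjusted p = 0.0173) and missed the threshold without D0 replicate 1 (0.0596) or 2 (0.0547). With the values as deposited neither passed (adjusted p = 0.0556 for Pou3f1 and 0.087 for Dnmt3a). The promoters were those of the factor genes Foxd3 (33, 19 and 19 reads at D2 against 16, 12 and 21 at D0, 0.92 ± 0.25), Sall2 (18, 24 and 19 reads at D2 against 18, 9 and 20 at D0, 0.88 ± 0.24) and Tcf15 (32, 19 and 24 reads at D2 against 20, 11 and 25 at D0, 0.87 ± 0.22). Raw reads of the days overlapped at all 3, and with the values as deposited none passed (adjusted p = 0.218, 0.242 and 0.232). The Foxd3 call was lost without any 1 of the 6 libraries (0.0507 to 0.148). That of Sall2 was lost without replicate 2 (0.172) or 3 (0.0877) of D2 or replicate 2 (0.195) or 3 (0.0691) of D0. That of Tcf15 was lost without replicate 1 (0.0804) or 3 (0.0661) of D2 or replicate 2 of D0 (0.123). Dnmt3b (0.75 ± 0.24, adjusted p = 0.0713), Grhl2 (0.70 ± 0.26, 0.125), Fgf5 (0.51 ± 0.46, 0.565) and Otx2 (-0.41 ± 0.15, 0.118) did not pass.

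Among genes shared by both pluripotent states, 3 of 10 neighbourhoods were called higher and 1 lower. Over all genes 2.12% were higher and 3.95% lower. The median change was 0.04, against 0.05 over all genes and 0.26 over housekeeping genes. At promoters 0 of 10 were called by limma. At an unadjusted p under 0.05 there were 2, both higher, where 3169 of all 21484 tested promoter tiles reached that level in either direction. Lin28a, an RNA-binding repressor of let-7 microRNAs, rose most, with 55, 49 and 53 reads at D2 against 23, 21 and 40 at D0 in 3 tiles (1.51 ± 0.29, adjusted p = 0.00351). Utf1, a chromatin factor gene, had 144, 100 and 133 reads at D2 against 88, 66 and 147 at D0 in 10 tiles (0.93 ± 0.19, adjusted p = 0.0064). Zfp281 rose by 0.63 ± 0.14 (adjusted p = 0.0114), and all 3 kept their calls without any 1 library. With the values as deposited the neighbourhood of Zfp281 did not pass (adjusted p = 0.0857). The shallower D2 libraries held more reads than the D0 libraries at Lin28a in every case. Rif1, a telomere and replication timing factor gene, fell by 0.75 on the log2 scale in 2 tiles (adjusted p = 0.0147) and missed the threshold without replicate 2 of D2 (adjusted p = 0.0558) or of D0 (0.0551). The neighbourhoods of Pou5f1 (0.04 ± 0.18, adjusted p = 0.927) and Sox2 (-0.16 ± 0.20, 0.686) did not pass.

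Of 16 genes that answer Fgf and Erk, 3 neighbourhoods were higher and 0 lower, where 2.12% of all were higher, and the median change was 0.41 against 0.05 over all genes and 0.26 over housekeeping genes. The 3 were the feedback inhibitor gene Spry4 (125, 111 and 107 reads at D2 against 97, 80 and 83 at D0 in 11 tiles, 0.80 ± 0.17, adjusted p = 0.00903), the immediate early gene Egr1 (0.82 ± 0.19) and the Erk phosphatase gene Dusp6 (0.70 ± 0.19). Spry4 kept its call without any 1 library. Egr1 did not without D2 replicate 3 (adjusted p = 0.057) or D0 replicate 1 (0.0671), and Dusp6 did not without replicate 1 (0.0584) or 3 (0.138) of D2 or 2 (0.0956) or 3 (0.0992) of D0. Spry4 and Egr1 lie on chromosome 18, where tiles outside the tested set were 0.18 higher at D2 on the log2 scale. With each chromosome centred on its median they still passed, with 0.72 (adjusted p = 0.0267) and 0.74 (0.0473). With the values as deposited Spry4 passed (0.0477), and Egr1 (0.0547) and Dusp6 (0.144) did not. The promoter of Ccnd1, the cyclin D1 gene, was also called (0.93 ± 0.22), though not without D2 replicate 3 (0.0563), D0 replicate 1 (0.0609) or D0 replicate 2 (0.076) or with chromosomes centred (0.0653).

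In the Nodal pathway, which patterns the epiblast, 3 of 12 neighbourhoods were higher and 1 lower, and 2 promoters were higher. Over all genes 2.12% of neighbourhoods were higher and 3.95% lower, and 1.34% of promoters were higher. The median change of the list was 0.02 at neighbourhoods and 0.10 at promoters, against 0.05 and 0.07 over all genes. Lefty1, a secreted Nodal antagonist, had 150, 116 and 101 reads at D2 against 91, 86 and 107 at D0 in 8 tiles (0.86 ± 0.17, adjusted p = 0.00408), and kept its call without any 1 library. Its neighbour and relative Lefty2 rose at the promoter, with 19, 18 and 23 reads at D2 against 11, 14 and 6 at D0 (1.53 ± 0.42, adjusted p = 0.0393). The Lefty2 neighbourhood (0.57 ± 0.16) and that of Skil, a Smad corepressor gene (0.70 ± 0.20), were also called, as was the Lefty1 promoter (0.89 ± 0.24). These 4 calls depended on single libraries. Both Lefty2 calls held only without D0 replicate 2 (adjusted p up to 0.2 at the promoter and 0.127 at the neighbourhood), that of Skil only without D2 replicate 2 (up to 0.2), and that of the Lefty1 promoter only without D2 replicate 2 or D0 replicate 3 (up to 0.185). Lefty1 and Lefty2 are similar in sequence, so reads may be shared between them. Gdf3, a ligand gene of the same family, fell (-0.77 ± 0.18), though not without D2 replicate 2 (adjusted p = 0.0645) or D0 replicate 3 (0.0536). The ligand gene Nodal itself did not pass at its neighbourhood (0.08 ± 0.21) or promoter (-0.60 ± 0.22, adjusted p = 0.149).

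Among Lif and Stat3 genes the Bcl3 promoter described above was the only promoter call of 12, and the neighbourhood of Cish, a cytokine feedback gene, was higher (0.94 ± 0.27, adjusted p = 0.0396). Over all genes 1.34% of promoters were called higher and 0.702% lower. At neighbourhoods the shares were 2.12% and 3.95%. The Cish call held only without D0 replicate 2 or 3 (up to 0.178 otherwise). Lifr (-0.62 ± 0.22, adjusted p = 0.105), Il6st (-0.66 ± 0.20, 0.0587) and Socs3 (-0.19 ± 0.19, 0.604) did not pass. Of the Wnt targets, which the GSK3 inhibitor switches on, only Sp5 was called of 12 promoters and 11 neighbourhoods, lower at both. Its promoter held 11, 8 and 10 reads at D2 against 21, 22 and 50 at D0 (-1.35 ± 0.34, adjusted p = 0.0243), and its 2 distal tiles 18, 19 and 12 reads at D2 against 36, 30 and 54 at D0 (-1.05 ± 0.25, adjusted p = 0.0165). The days did not overlap in reads at either. After normalisation they did not overlap in 14.1% of all promoters and 20.9% of all neighbourhoods. The promoter call held only without D2 replicate 3 or D0 replicate 1 (adjusted p up to 0.104 otherwise). The distal call was lost without replicate 3 of D2 (0.0791) or of D0 (0.0587).

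Epithelial genes moved at a few promoters. Beside Epcam, Esrp1, an epithelial splicing regulator gene (chromosome 4, 11386001 to 11388000), rose by 2.28 ± 0.40 (adjusted p = 0.00157), with 31, 24 and 27 reads at D2 against 4, 9 and 15 at D0. Both of these promoters, of 14 measured, held in every fit without 1 library. Over all genes 1.34% of promoters were called higher. Of all neighbourhoods 2.12% were called higher and 3.95% lower, which applies to the 3 lists of this paragraph. The neighbourhood of Zeb2, a repressor of epithelial genes, fell over 2 tiles with 20, 11 and 20 reads at D2 against 37, 32 and 41 at D0 (-1.29 ± 0.26, adjusted p = 0.00515), and was the only one called of 12. Its call held in 10 of 15 other settings. It was lost in limma-voom (adjusted p = 0.173), with the highest 5% (0.868) or 20% (0.305) of tiles and with a window of 20 kb (0.853), and with no filter on tiles the change turned to 0.07 (0.905). Cdh1 did not pass at either readout (0.14 ± 0.21 at the promoter, 0.03 ± 0.16 at the neighbourhood). In the basement membrane list Nid1, the nidogen gene, was the only call of 13 neighbourhoods, with 62, 45 and 53 reads at D2 against 122, 88 and 175 at D0 (-1.07 ± 0.19, adjusted p = 0.00168). In the glycolysis list the monocarboxylate transporter gene Slc16a3 was higher at its neighbourhood (0.70 ± 0.15, adjusted p = 0.00824, but 0.058 with the values as deposited) and promoter (1.00 ± 0.27, a call that held only without D2 replicate 1 or D0 replicate 3, with adjusted p up to 0.166 otherwise), and hexokinase gene Hk1 was lower at its neighbourhood (-0.78 ± 0.17, adjusted p = 0.0511 without D2 replicate 2).

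Over 6 lists of markers of other lineages, 4 of 76 neighbourhoods (5.26%) were lower and 0 higher, near the 3.95% lower of all neighbourhoods, and 1 of 82 promoters (1.22%) was lower and 0 higher, against 0.702% lower of all. Of 12 trophoblast genes 2 neighbourhoods were lower, those of Tfap2c (106, 76 and 99 reads at D2 against 188, 161 and 269 at D0 in 12 tiles, -1.01 ± 0.14, adjusted p = 0.000384) and Tead4 (-0.64 ± 0.14, adjusted p = 0.00876), both also active in naive stem cells. Of 12 streak and mesoderm genes 2 were lower, Msgn1 (56, 51 and 52 reads at D2 against 114, 90 and 170 at D0, -0.99 ± 0.14, adjusted p = 0.000384) and Evx1 (-0.97 ± 0.25, lost without D2 replicate 3, adjusted p = 0.105, or D0 replicate 1, 0.119). The Spi1 promoter was lower (-1.08 ± 0.29), the only call of 16 haematopoietic genes, and the call held only without D2 replicate 1 (adjusted p up to 0.162 otherwise). Summed over the promoter tiles of each list, reads per M (10 to the sixth) autosomal reads overlapped between the days for primitive endoderm genes (24.8 to 30.9 at D2, 20.6 to 30.8 at D0), and for trophoblast genes the D0 libraries lay inside the range of the D2 libraries. Fibroblast genes, the markers of feeder cells, had 26.3 to 30.4 at D2 and 24.8 to 26.2 at D0, so all D2 libraries were above the D0 libraries. Two-cell-like genes, of which 2 of 7 were at 0 on both days, also lay above, with 3.04 to 3.70 at D2 and 2.18 to 2.69 at D0, and haematopoietic genes lay below, with 34.5 to 38.9 at D2 and 41.4 to 42.3 at D0. The part of such cells in the results was not tested. In the primitive endoderm, trophoblast, fibroblast and haematopoietic lists no gene had a promoter tile at 0 reads summed over a day. Primitive endoderm, fibroblast, neuroectoderm, Bmp pathway, two-cell-like and methylation-dependent germline genes gave 0 limma calls at either readout. At an unadjusted p under 0.05, 7 of their 74 promoters were higher and 5 lower, and 2 of their 59 neighbourhoods were higher and 10 lower. At that level stood 3169 of all 21484 tested promoter tiles and 3165 of all 14904 neighbourhoods, in either direction. Of 13 housekeeping genes 1 neighbourhood was called, a single tile at Tbp (0.93 ± 0.26, held only without D2 replicate 1 or D0 replicate 2, adjusted p up to 0.152 otherwise), and the median change was 0.26. Of 14 genes of the DNA methylation machinery only the Dnmt3a neighbourhood was called. Over all genes 2.12% of neighbourhoods were called higher.

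The TET_WT line shares no library with DNMT_WT and went through the same days. Its libraries were deeper, with 8306965 to 11922487 reads in tiles at D2 and 10350700 to 23686796 at D0. Their tiles summed to 1.15 times the library total behind the RPKM, against 1.02 times in DNMT_WT. Tested tiles without a gene start were chosen by their mean in DNMT_WT, so calls of TET_WT and DNMT_KO are counted within that set. The part of these differences in the results was not tested. At the tiles called in DNMT_WT, the TET_WT change had the same sign in 79.8% of those higher and 92.1% of those lower, with medians of 0.39 and -0.83 against 1.50 and -1.69 in DNMT_WT, whose tiles were selected for their size. TET_WT itself had 145 tiles called higher and 533 lower. Of these, 60 were shared with DNMT_WT among the higher (4.36% of DNMT_WT's calls and 41.4% of TET_WT's) and 413 among the lower (12.3% and 77.5%), and 0 were called in opposite directions. The test of the difference itself called 0 of 130143 tiles (0.0%) in limma, with 7903 at an unadjusted p under 0.05, and limma-voom on the recovered reads called 0. The smallest adjusted p, 0.0771, was at the Tnfrsf21 tile, where TET_WT held 16, 22 and 21 reads at D2 against 134, 51 and 106 at D0 (-1.85 ± 0.30). No tile is called particular to DNMT_WT here.

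DNMT_KO went through the same days without Dnmt1, Dnmt3a and Dnmt3b. Its changes had the same sign at 81.0% of the tiles called higher and 94.0% of those called lower, with medians of 0.44 and -1.15. DNMT_KO itself had 557 tiles called higher and 2308 lower. Of these 74 were shared among the higher (5.37% of DNMT_WT's calls and 13.3% of DNMT_KO's) and 1211 among the lower (36.0% and 52.5%). At the tiles called higher in DNMT_KO the median change was 1.39 in DNMT_KO and 0.46 in DNMT_WT. Here too the difference was called at 0 of 130143 tiles (0.0%) in limma, with 10070 at an unadjusted p under 0.05, and at 0 in limma-voom. At the strongest Jam2 tile DNMT_KO changed by -2.81 against -3.04 in DNMT_WT, and at the Kdm3a start by -2.29 against -2.59. At the Lpar1 start it changed by -0.30 against -2.45, a difference that did not pass (adjusted p = 0.413).

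**Figure D5:**
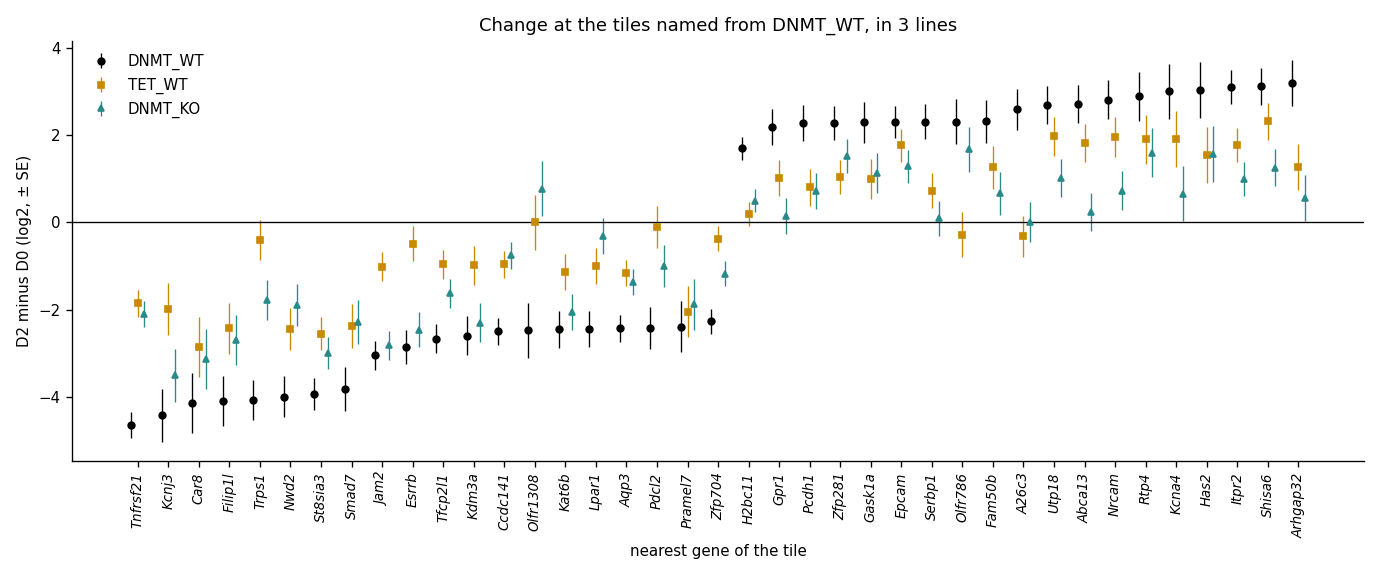
D2 minus D0 change (y axis, log2, ± SE of the fit, 3 libraries a day) at the 39 tiles named from DNMT_WT, in DNMT_WT (black), TET_WT (yellow) and DNMT_KO (green), ordered by the DNMT_WT change and named by the nearest gene. The tiles were chosen for large changes in DNMT_WT, which the other lines mostly follow in sign with smaller values.

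The D1 libraries of DNMT_WT were not tested against the other days, since they were processed otherwise before deposit: their tiles summed to 2.04 times the library total behind the RPKM, against 1.02 times at D0 and D2. As a description, after quantile normalisation of all 35 libraries, tiles called lower had median levels of 0.97 at D0, 0.00 at D1 and -0.92 at D2 (log2). Tiles called higher had -0.89, 0.25 and 0.78. The D1 mean lay between the other days in 85.6% of the closing and 84.6% of the opening tiles, against 36.5% of uncalled tiles, where the days differ little to begin with. The part of the D1 processing in these levels cannot be told apart from the day.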

How the data were processed

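Tn5-based ATAC-seq libraries were made from 10000 cells with 13 PCR cycles, per the labels' protocols. Reads were trimmed with Trim Galore 0.6.5 (cutadapt 2.3) and aligned with Bowtie2 2.4.1 to GRCm38, per the submitters' processing notes. The authors deposited log2 RPKM per 2-kb tile, with an empty tile set at 0.9 reads. Whole reads were recovered from these log2 values (all non-empty tiles of the compared libraries within 0.01 reads). Duplicate handling, insertion shifting and the treatment of reads with several positions are not given in the sources used here.

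Of 1231381 autosomal tiles, the highest 10% by mean over the 6 DNMT_WT libraries (log2 RPKM of at least -0.67) and every tile with a gene start were tested. The 23 D0 and D2 libraries were quantile normalised and fitted with the variance trend option of limma 3.58.1 under R 4.3.3, taking 1 mean per line and day with 15 residual degrees of freedom and Benjamini-Hochberg adjustment. Gene starts came from RefSeq for 16456 genes and, for 4205 without one, from the gene end with more accessibility, which differed by under 0.5 log2 in 1303. Loci joined called tiles over gaps of up to 10 kb. Named were the 8 largest changes per direction among called tiles and the 6 among promoters (groups not overlapping, at least 20 reads in 1 group), the 6 loci with the most called tiles, and up to 4 called members per list. All members and the 21 gene lists were chosen with earlier results of these data known. The steps were tested on simulated data. Alternatives varied libraries, normalisation, floor, test, depth, filter, window, pairing and single replicates.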

Additional observations from a re-analysis of the deposited data

How the results depend on the processing

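Of 4741 called tiles, 458 promoter tiles and 905 neighbourhoods, the fit to the 6 DNMT_WT libraries called 424, 44 and 115, and that to the 12 DNMT_WT and DNMT_KO libraries 1559, 119 and 380. With the values as deposited the counts were 3112, 197 and 417, with medians set equal 3051, 206 and 456, with limma-voom on reads 936, 52 and 420, with reads thinned to the lowest depth 2527, 211 and 565, and with no filter 1322, 35 and 149. Without 1 library they ranged over 3135 to 3932, 299 to 433 and 622 to 730, and the lowest tile and promoter counts came without D0 replicate 2. The replicate block gave 3387 tiles, 340 promoter tiles and 568 neighbourhoods. The replicate numbers share no stated culture, and deviations of same-numbered D2 and D0 libraries correlated at 0.0064, 0.0101 and 0.0350, so the numbers were not taken to pair samples. The cause of these differences was not tested.

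The count of tiles differing between DNMT_WT and TET_WT was 0, but 7 with all 35 libraries, 4 with chromosomes centred, 1 with thinned reads, 9 with the highest 20% of tiles, 2 with no filter, 1 with the replicate block and 0 to 1 without 1 library (1 without D2 replicate 2). Between DNMT_KO and DNMT_WT it was 0, but 1 with the 12 libraries of that family and 0 to 0 without 1 library. The Zeb2 neighbourhood turned to 0.0698 (adjusted p = 0.905) with no filter. It also lost its call with the highest 5% of tiles and with a window of 20 kb, and the cause was not tested. Of the 19 tiles named as higher and 20 as lower, 16 and 18 kept their calls without any 1 library, 19 and 20 with the values as deposited, 13 and 16 in limma-voom, and 4 and 14 in the fit to the 6 libraries. Of 14 higher and 21 lower neighbourhoods 4 and 17 passed as deposited, 10 and 15 in limma-voom and 1 and 5 in the fit to the 6 libraries. Of 9 higher and 6 lower promoters 3 and 5, 2 and 2, and 0 and 1 did. The promoter balance turned with no filter, with 14 higher and 21 lower. Depth limits single tiles, since the median autosomal tile held 3 to 4 reads at D2 and 3 to 5 at D0.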

Other observations

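Opening calls were unevenly spread over chromosomes. Chromosome 19 had 2.36% of its tested tiles called higher and 1.42% lower, and chromosomes 13, 15, 18 and 19 together had 273 of 14061 (1.94%) called higher. On the same chromosomes the mean log2 RPKM of tiles outside the tested set was 0.26, 0.18, 0.16 and 0.15 higher at D2 than at D0 for 19, 18, 13 and 15, against -0.03 to 0.09 elsewhere. With each chromosome centred on its median, 5537 tiles were called, 1581 higher and 3956 lower. Chromosome 14 had the highest share called lower, 5.06%.

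Chromosomes 1 and 8 carried more reads per tile than the other autosomes on both days. Their mean log2 RPKM outside the tested set was -1.50 and -1.56 at D2 and -1.58 and -1.58 at D0, against -2.07 to -1.77 at D2 and -2.12 to -1.79 at D0 on other autosomes. They supplied 16.1% and 13.7% of tested tiles, with 1.83% and 1.52% called lower.

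Neighbourhoods of all 13 housekeeping genes had changes above 0, with a median of 0.26 against 0.05 over all genes.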
